A study of Mus musculus with 30 samples.

Results

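Acta2, Cnn1, Tagln, Lmod1, Fhl1, Myl9, Tpm2 and Ankrd1 are genes of the smooth-muscle contractile apparatus and of the response to stretch. These 8 genes were taken as a list out of 45706 genes measured in mouse osteoclast cultures, and were matched by Ensembl identifier through GENCODE M21. The list was selected on measured levels: Lmod1, Cnn1 and Fhl1 were lower at 20 than at 6 months in 2-day wild-type cultures, so that comparison is described without a test. The values are in TPM, an abundance scaled for transcript length that sums to 1000000 in each of 30 libraries. All 8 genes had a mean of at least 1 TPM and were among the 12614 genes tested.

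Marrow-derived macrophages of C57BL/6J mice were turned into osteoclasts on slices of bone with RANKL at 100 ng/ml and M-CSF at 25 ng/ml. The mice were Terc-/-, lacking the RNA template of telomerase, or wild type, and no further allele or treatment is labelled. Cultures were harvested once large multinucleated cells were present, or at 2 days. The 10 groups of 3 libraries were large-cell cultures of Terc-/- mice aged 1 and 6 months, the same with 519 in the title (1 and 6 months), wild type of 1 month with gaiwei in the title, wild type of 1, 6 and 20 months, and wild type at 2 days (20 and 6 months). The labels do not state what 519 and gaiwei mean, and those 9 libraries are called marked. Nothing states that the libraries of a group came from separate animals or cultures. Unless stated, each p-value therefore measures the spread between libraries within groups, pooled over all 10 groups, and that spread may be technical. It differed between groups. For Acta2 the standard deviation of log2 values was 0.063 in 519-marked and 1.47 in unmarked 6-month Terc-/- large cells.

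Contraction in smooth muscle rests on actin filaments, the tropomyosin, calponin and transgelin that lie along them, and the myosin whose light chains are phosphorylated to start pulling. Fibroblasts that switch on the same genes, alpha smooth muscle actin above all, are called myofibroblasts. The transcription factor SRF, acting through the CArG box with myocardin-family partners that sense free actin, drives many of these genes. TEAD factors, acting through the MCAT motif with the stretch-responsive partner YAP, drive Ankrd1 and others.

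The promoters of 5 members are shown because they hold one of these motifs. RefSeq windows on GRCm38.p6, running from 250 bases before to 50 after a start, were held for 7 of the 8 members (8 windows, 2 of them for Fhl1). Tagln had none. Capitals mark the CArG box, with at most 1 of its 6 central letters G or C, and MCAT, searched as CATTCC or GGAATG. Both strands were searched, and no matches overlapped. The windows are 5′ to 3′ on the gene's own strand: Acta2 at chr19:34255324-34255623, minus strand, Myl9 at chr2:156775214-156775513, plus strand, Fhl1 at chrX:56779433-56779732, plus strand, Lmod1 at chr1:135324563-135324862, plus strand, and Ankrd1 at chr19:36119795-36120094, minus strand.
Acta2: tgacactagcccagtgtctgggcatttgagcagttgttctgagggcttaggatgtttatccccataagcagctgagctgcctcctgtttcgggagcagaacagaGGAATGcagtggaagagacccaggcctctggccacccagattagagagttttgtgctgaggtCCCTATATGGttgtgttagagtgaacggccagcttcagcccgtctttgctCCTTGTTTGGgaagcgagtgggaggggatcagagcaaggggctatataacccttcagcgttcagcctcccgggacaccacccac
Myl9: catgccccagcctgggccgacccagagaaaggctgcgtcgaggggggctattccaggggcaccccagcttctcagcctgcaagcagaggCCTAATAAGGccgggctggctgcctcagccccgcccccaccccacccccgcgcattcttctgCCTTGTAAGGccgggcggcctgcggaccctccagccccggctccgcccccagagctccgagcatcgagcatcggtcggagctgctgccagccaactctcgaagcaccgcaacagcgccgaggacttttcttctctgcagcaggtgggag
Fhl1: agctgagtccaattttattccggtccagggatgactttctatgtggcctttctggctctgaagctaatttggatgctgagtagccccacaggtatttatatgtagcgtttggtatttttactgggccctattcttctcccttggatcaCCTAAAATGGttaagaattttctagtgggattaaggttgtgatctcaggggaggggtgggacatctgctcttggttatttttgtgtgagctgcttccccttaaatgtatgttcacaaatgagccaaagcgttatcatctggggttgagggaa
Lmod1: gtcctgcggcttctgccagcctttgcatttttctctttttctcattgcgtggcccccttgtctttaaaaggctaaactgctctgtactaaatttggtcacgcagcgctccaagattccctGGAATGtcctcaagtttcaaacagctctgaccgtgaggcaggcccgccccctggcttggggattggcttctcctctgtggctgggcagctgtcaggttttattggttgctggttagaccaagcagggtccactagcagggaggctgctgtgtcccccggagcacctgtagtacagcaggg
Ankrd1: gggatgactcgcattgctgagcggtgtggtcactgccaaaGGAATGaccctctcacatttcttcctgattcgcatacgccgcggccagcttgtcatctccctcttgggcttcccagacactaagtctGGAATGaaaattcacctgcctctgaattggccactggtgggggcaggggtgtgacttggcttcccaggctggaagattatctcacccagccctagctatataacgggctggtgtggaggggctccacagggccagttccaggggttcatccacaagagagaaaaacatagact

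An exact CArG box began at -161 in Myl9 and at -102 in Fhl1, counted from the start with -1 the base before it. Of 32851 promoter windows, 1.63% held an exact box. With 1 central letter free, Acta2 (at -84 and -34) and a further Myl9 site (at -99) were added, so that 3 members matched, against 9.98% of all windows. MCAT stood at -146 in Acta2, at -130 in Lmod1 and at -210 and -123 in Ankrd1, again 3 members, against 14.7% of all windows. The Cnn1, Tpm2 and second Fhl1 windows held neither motif, which says only that these letters are not in those windows.

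On GRCm38 the members lie on 6 chromosomes. Acta2 (19:34241090-34255590) and Ankrd1 (19:36111961-36120099) share chromosome 19 on the minus strand, and Cnn1 (9:22099216-22109630, plus) and Tagln (9:45929619-45936058, minus) share chromosome 9. Lmod1 is at 1:135324807-135368065 (plus), Myl9 at 2:156775420-156781658 (plus), Tpm2 at 4:43514711-43523765 (minus) and Fhl1 at X:56731787-56793346 (plus).

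Some facts of the whole series bear on the values. Terc, the deleted gene, was listed at 0 not just in the 12 Terc-/- libraries but in 15 of the 18 from wild type too, and so gives no check of genotype. Unmarked wild type of 1 month (3 libraries) had 46.6 to 84.1 TPM of the female X-inactivation transcript Xist, and the remaining 27 libraries had at most 0.254 TPM. Comparisons with that group therefore also set male-pattern against female-pattern libraries, and genotype and this pattern cannot be told apart there. The summed TPM of 12 osteoclast markers ran from 4657 to 28224 in unmarked large-cell libraries, from 676 to 2171 in marked ones and from 362 to 813 at 2 days. Libraries were rescaled by a trimmed mean of log ratios with factors from 0.664 to 1.30, and changes are log2 differences of scaled TPM + 1, which understate the change of low genes.

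Levels spanned a wide range. The smooth-muscle actin gene Acta2 and the transgelin gene Tagln were the most abundant members in most libraries. Mean Acta2 ran from 142 TPM in 519-marked 1-month Terc-/- cultures up to 4766 TPM in 6-month wild type at 2 days, a 33.7-fold span. Lmod1, whose product leiomodin nucleates actin filaments, spanned 103-fold over the groups at a far lower level, with means from 0.401 to 41.1 TPM. The span was 110-fold for Fhl1, a LIM-domain protein of muscle, 39.7-fold for the calponin gene Cnn1 and 25.1-fold for Tagln. It was 23.1-fold for Myl9, the regulatory light chain of smooth-muscle myosin, 21.5-fold for the beta-tropomyosin gene Tpm2 and 43.3-fold for Ankrd1, a nuclear and sarcomeric stretch-response protein.

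The order of the groups was alike across members. After scaling, 6-month wild type at 2 days was first for all 8 genes, and for 6 of them its libraries lay clear of the next group. For Myl9 and Tpm2 they overlapped with 6-month wild-type large cells. The list was noticed through this 2-day group, and the share over all genes was not computed, so nothing is read from these counts. Unmarked wild-type large cells and 20-month wild type at 2 days followed, and the Terc-/- groups and gaiwei-marked wild type came last, except that for Ankrd1 6-month Terc-/- lay level with 1-month wild type. Of 72 neighbouring pairs in these orders, 23 did not overlap. Neighbours were sorted to be adjacent by mean, which favours overlap, so nothing is read from that count. No share over all genes was computed for this count either. Over the 10 group means the log2 levels of the members correlated with r from 0.860 (Fhl1 and Ankrd1) to 0.993 (Cnn1 and Myl9), and the 7 lowest of the 28 correlations all involved Ankrd1. The points share libraries and scaling, and the members were chosen together.

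**Figure D1:**
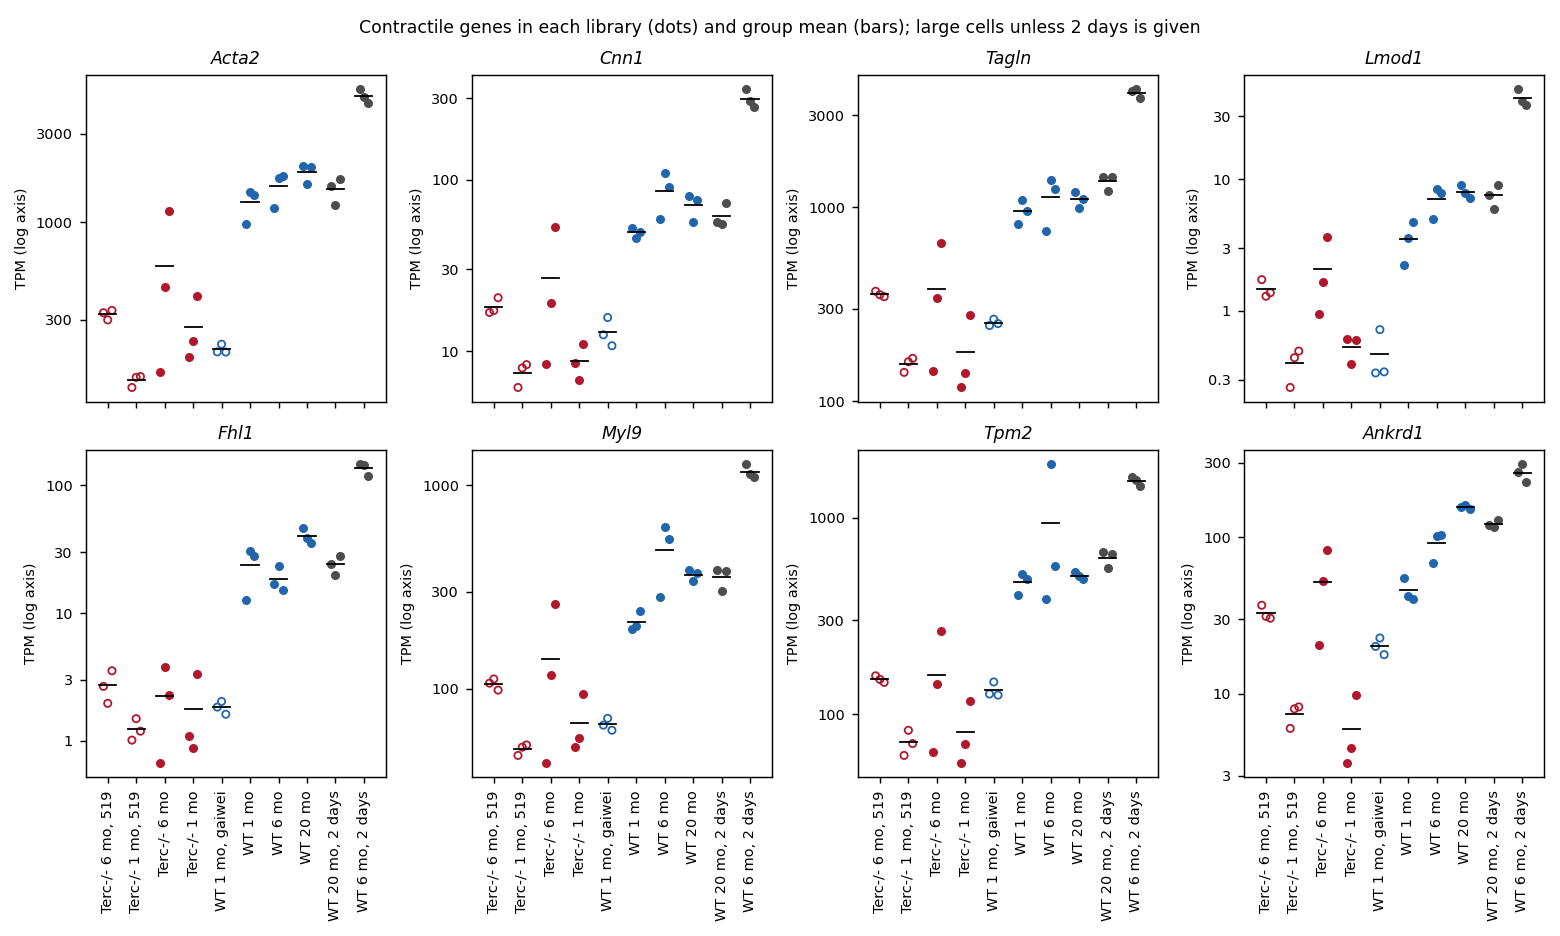
TPM of the 8 genes (log axis) in each library (dots) with group means (bars), marked groups as open symbols, Terc-/- in red, wild-type large cells in blue and 2-day cultures in grey. The 3 libraries of 6-month wild type at 2 days are highest for Acta2, Cnn1, Tagln, Lmod1, Fhl1, Myl9 and Ankrd1, and 1 library of 6-month wild-type large cells exceeds them for Tpm2 at 1868 TPM.

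By the same measure, the non-member genes most like each member were few and partly shared. Gpc4, a glypican, was closest to Acta2 (r = 0.992), Cnn1 (r = 0.982) and Myl9 (r = 0.980). Cnn2, the calponin 2 gene, was closest to Tagln (r = 0.995) and Tpm2 (r = 0.979). Parm1 was closest to Lmod1 (r = 0.990) and Mgat3 to Fhl1 (r = 0.989). For Ankrd1 the closest was Fstl3 (r = 0.973), which encodes a follistatin-like protein that binds activins. Each is a description over 10 group means.

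The cell types that could carry these genes were checked by markers. Genes of vascular smooth muscle differed widely in level. The smooth-muscle myosin gene Myh11 reached at most 10.4 TPM, the coactivator gene Myocd 1.57 TPM and the desmin gene Des 1.34 TPM. The smoothelin gene Smtn ran from 5.82 to 91.3 TPM and the actin gene Actg2, of the same list, from 22.4 to 1563 TPM. Of 10 pericyte markers Rgs5 stayed at or under 0.688 TPM and Higd1b was listed at 0 throughout. Mcam and Foxs1 both reached 63.8 TPM, in 6-month wild type at 2 days. Cspg4 had its highest mean in unmarked 1-month wild-type large cells, 22.4 TPM, against 4.40 TPM in 6-month wild type at 2 days. Ndufa4l2 had its highest in 20-month wild-type large cells, 29.7 TPM, against 0.226 TPM in 6-month wild type at 2 days. The pericyte sums were 25.3 to 42.8 TPM in 1-month Terc-/- large cells, against 35.6 to 64.1 TPM in wild type, and 43.4 to 55.0 TPM at 20 months, against 120.4 to 124 TPM at 6 months, in 2-day wild type. Their part in the results was not tested. Of 10 endothelial markers, with sums of 21.3 to 43.7 TPM over all libraries, Cdh5 reached at most 2.53 TPM, Eng 27.6 TPM and Vwf 23.7 TPM. Stromal and fibroblast markers differed widely in level over the 30 libraries. The matrix genes Col1a1 (15.9 to 1634 TPM) and Sparc (79.9 to 3311 TPM) were abundant, while Pdgfra (0.121 to 4.65 TPM) and Thy1 (0.0504 to 7.51 TPM) were low, and Fap (0.0303 to 3.29 TPM) and Lum (0 to 2.18 TPM) did not pass the filter. Of these 20 markers only Lum was listed at 0 in any library. The other muscle actin genes Actg2 (22.4 to 1563 TPM) and Acta1 (8.97 to 397 TPM) were also present. These genes are alike in coding sequence, and how reads were divided among Acta2, Actg2 and Acta1 was not checked and is uncertain. The cardiac actin gene Actc1 stayed at or under 0.156 TPM.

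The summed TPM of the 8 genes moved with that of the 20 stromal markers, though not in a fixed ratio. The ratio of the sums was 0.591 to 0.726 in 1-month Terc-/- cultures and 0.427 to 0.713 in 6-month ones. In marked cultures it was 0.693 to 0.895 for Terc-/- at 1 month, 0.602 to 0.754 for Terc-/- at 6 months and 0.756 to 0.944 for wild type. In unmarked wild-type large cells it lay between 0.346 and 0.940 at 1 month, between 0.560 and 1.79 at 6 months and between 0.310 and 0.329 at 20 months. At 2 days it was 0.828 to 0.887 at 20 months and 1.16 to 1.21 at 6 months. The 20-month large-cell libraries had the highest stromal sums of all, 11758 to 14296 TPM, at member sums of 3715 to 4434 TPM.

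**Figure D2:**
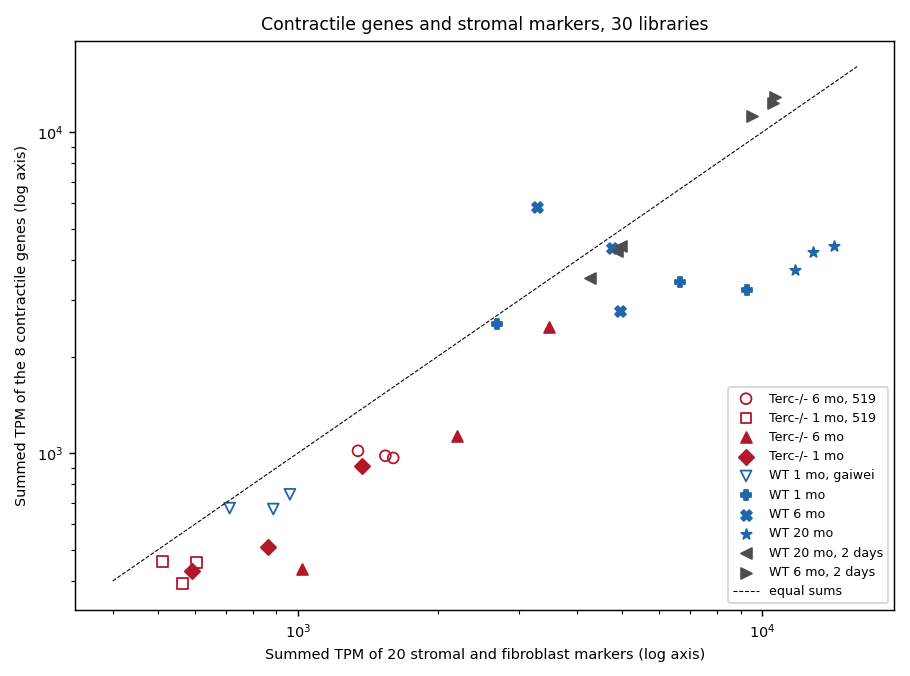
Summed TPM of the 8 contractile genes (y axis, log) against summed TPM of 20 stromal and fibroblast markers (x axis, log), 1 symbol per library, with a dashed line where the sums are equal. The 3 libraries of 6-month wild type at 2 days lie above the line at ratios of 1.16 to 1.21, as does 1 library of 6-month wild-type large cells at 1.79, and those of 20-month wild-type large cells lie far below it at 0.310 to 0.329.

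The first comparison set Terc-/- against wild type in large-cell cultures of 1-month mice. Its wild-type libraries are those with high Xist, so genotype and that pattern cannot be told apart. All 8 genes fell in Terc-/- cultures, where 15.6% of all tested genes fell, and in none of the 8 did the groups overlap (22% of genes were lower without overlap). Acta2 read 190.1, 230.5 and 400.2 TPM in Terc-/- libraries, against 975, 1465 and 1402 TPM in wild type. The highest Terc-/- library was under every wild-type one, a log2 change of -2.24 ± 0.42 (standard error, limma, adjusted p = 0.000275, n = 3 each). In these bulk samples, fewer cells of a type and less RNA per cell cannot be told apart.

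Along the actin filament, Tagln read 118, 139.9 and 279.8 TPM in Terc-/- libraries, against 823, 1097 and 963 TPM in wild type. It changed by -2.48 ± 0.38 (limma, adjusted p = 2.78e-05). Cnn1 read 8.57, 6.77 and 10.9 TPM in Terc-/- libraries, against 52.6, 45.6 and 49.6 TPM, a change of -2.35 ± 0.41 (limma, adjusted p = 0.00013). Both genes were tightly grouped in wild type and well separated. Tpm2 (56.7, 70.9 and 116 TPM in Terc-/-, against 407, 516 and 485 TPM) changed by -2.54 ± 0.48. Lmod1 was low throughout, at 0.616, 0.400 and 0.598 TPM in Terc-/- libraries, against 2.21, 3.56 and 4.72 TPM in wild type, so that its change of -1.45 ± 0.28 is damped by the added 1.

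The myosin light chain gene Myl9 had the smallest change but for Lmod1, -1.66 ± 0.41 (limma, adjusted p = 0.00374), at 51.4, 57.4 and 93.9 TPM in Terc-/- libraries, against 197, 204 and 241 TPM. The X-linked gene Fhl1 had the largest, -3.12 ± 0.33 (limma, adjusted p = 4.15e-07). It read 1.09, 0.884 and 3.34 TPM in Terc-/- libraries, against 12.7, 30.6 and 27.9 TPM in wild type. Ankrd1 read 3.64, 4.50 and 9.82 TPM, against 55.2, 42.4 and 40.1 TPM, a change of -2.80 ± 0.36 (limma, adjusted p = 4.29e-06). The median over the 8 genes was -2.41, and over all tested genes 0.00.

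Other genes of the same systems were mixed in this comparison. Of 25 tested smooth-muscle contractile genes outside the 8, 1 rose and 11 fell, with a median of -0.47. Cnn3, another calponin gene, changed by -2.75 ± 0.31 and the tropomyosin gene Tpm1 by -1.39 ± 0.22. Of 14 YAP and stretch-response genes 13 fell and none rose, with a median of -1.47, among them the secreted matricellular genes Ccn2 (-2.47 ± 0.29, 142 against 749 TPM) and Ccn1 (-2.07 ± 0.30). Of 10 genes of the SRF pathway 1 rose and 2 fell, with a median of 0.08. The coactivator gene Mrtfb rose by 0.71 ± 0.17, while Nexn, which encodes an actin-binding protein of the sarcomere, changed by -2.25 ± 0.33. Of 14 TGF-beta genes 1 rose (Tgfb1, 0.66 ± 0.14) and 7 fell, and of 24 focal adhesion genes 3 rose and 13 fell.

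Stromal and fibroblast markers moved with the 8 genes. Of 18 tested of 20 listed, 14 fell and 1 rose, with a median of -2.30. Col1a1 read 51.3 TPM on average in Terc-/- libraries, against 515 TPM in wild type (-3.21 ± 0.36). The marker sums were 592 to 1378 TPM in Terc-/- libraries, against 2685 to 9285 TPM in wild type. Lum was listed at 0 in at least 1 wild-type library and no other marker was at 0 in either group. Their part in the result was not tested.

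**Figure D3:**
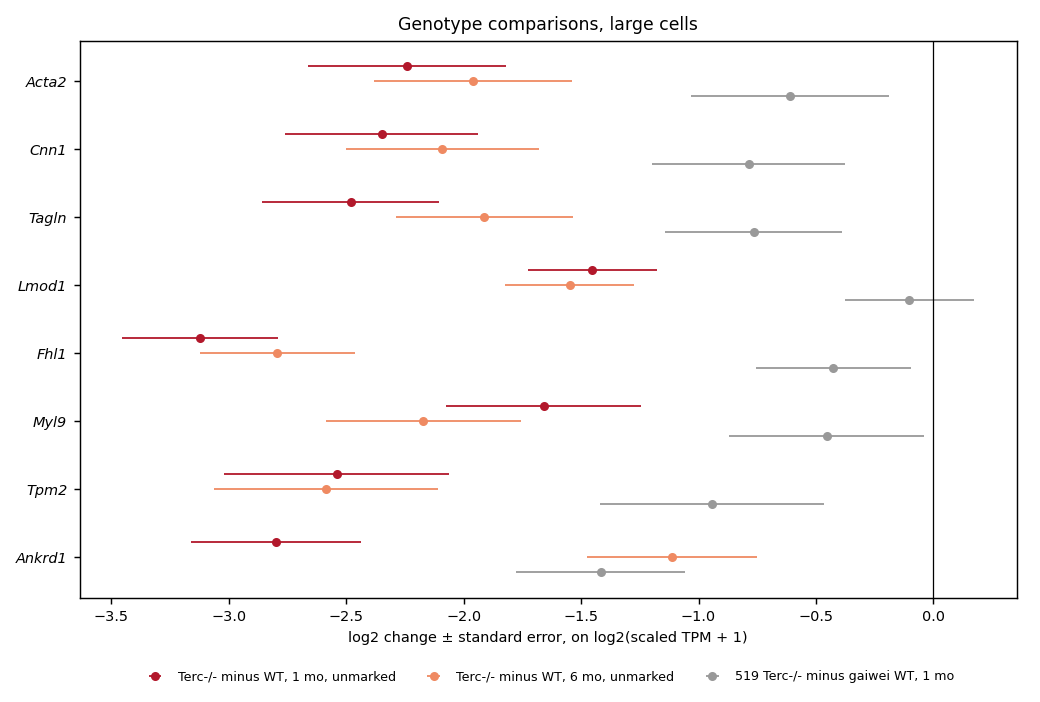
Log2 changes with standard errors (x axis) of the 8 genes in 3 genotype comparisons of large-cell cultures, 3 libraries a group. Unmarked 1-month wild type is the group with high Xist, and the marked pair differs in mark as well as genotype. The changes of unmarked Terc-/- minus unmarked wild type lie between -3.12 and -1.45 at 1 month and between -2.79 and -1.11 at 6 months, and those of 519-marked Terc-/- minus gaiwei-marked wild type between -1.42 and -0.10.

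At 6 months the same comparison of unmarked cultures also gave 8 of 8 genes lower in Terc-/-, against 13.1% of all tested genes, but this count rests on a spread shared with the other groups. With only these 6 libraries in the fit 0 of the 8 were called, with one variance per group 2, and with only these libraries but without wild-type replicate 2 it was 1. Over all 12614 genes these fits called 96, 444 and 1032, against 3636 in the main fit. The Terc-/- libraries were far apart. Acta2 read 157, 451 and 1147 TPM in Terc-/- libraries, against 1189, 1737 and 1779 TPM in wild type, a change of -1.96 ± 0.42 (limma, adjusted p = 0.0012, adjusted p = 0.264 with only these libraries). The highest Terc-/- library overlapped with the lowest wild-type one after scaling.

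Groups did not overlap for 3 of the 8 genes, where 11.4% of all tested genes were lower without overlap. Fhl1 read 0.677, 3.78 and 2.30 TPM in Terc-/- libraries, against 17.0, 23.5 and 15.1 TPM in wild type. Its change of -2.79 ± 0.33 had an adjusted p of 1.61e-06 in limma, and 0.0654 with only these libraries. Lmod1 read 0.948, 1.66 and 3.67 TPM in Terc-/- libraries, against 4.94, 8.38 and 7.79 TPM (-1.55 ± 0.28). Tpm2 was the gene on which a single wild-type library weighed most, at 64.2, 143 and 266 TPM in Terc-/- libraries, against 388, 1868 and 568 TPM in wild type. Its change was -2.58 ± 0.48, and -1.71 without the library at 1868 TPM.

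Among the overlapping genes, Cnn1 read 8.40, 19.1 and 53.1 TPM in Terc-/- libraries, against 59.0, 109 and 91.0 TPM in wild type, a change of -2.09 ± 0.41. Tagln (142, 339.7 and 657 TPM, against 758, 1391 and 1241 TPM) changed by -1.91 ± 0.38. Myl9 (43.3, 117 and 260.5 TPM, against 281, 624 and 542 TPM) changed by -2.17 ± 0.41. In all these genes the first Terc-/- library was lowest and the last was near wild type. Ankrd1 changed least, -1.11 ± 0.36 (limma, adjusted p = 0.0234), at 20.6, 52.5 and 82.8 TPM in Terc-/- libraries, against 68.9, 102 and 104 TPM. It was no longer called without Terc-/- replicate 1 (-0.56), wild-type replicate 2 (-0.81) or wild-type replicate 4 (-1.06).

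Of the other smooth-muscle genes 16 of 25 fell at 6 months and none rose, with a median of -0.79, led by the myosin light chain kinase gene Mylk (-1.97 ± 0.14, 0.329 against 4.04 TPM). Of 14 stretch-response genes 9 fell and 1 rose. Of 18 stromal markers 11 fell and 2 rose, and 1 of these, the proteoglycan gene Dcn, read 80.8 against 1.74 TPM (4.82 ± 0.43). Stromal sums were 1024 to 3467 TPM in Terc-/- libraries, against 3282 to 4935 TPM in wild type. Their part in the result was not tested. The genotype change differed between the ages in 0 of 8 genes, against 3.58% of all genes, with Ankrd1 nearest (difference 1.68 ± 0.51, 6 minus 1 months, limma, adjusted p = 0.0654, and 0.0213 with TPM as deposited). The difference of Ankrd1 also passed without Terc-/- replicate 4 of 1 month, Terc-/- replicate 1 of 6 months or wild-type replicate 2 of 6 months. At an unadjusted p under 0.05 in limma it was 1 of 8, against 17.6% of all genes.

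The genotypes were also set side by side in marked cultures of 1 month. All marked Terc-/- libraries carry 519 and all marked wild-type ones gaiwei, so genotype and kind of mark cannot be told apart. Of the 8 genes 1 fell in 519-marked Terc-/- against gaiwei-marked wild type, where 1.87% of all genes fell. This was Ankrd1, at 6.02, 8.03 and 8.26 TPM in Terc-/- libraries, against 20.1, 22.8 and 17.8 TPM in wild type (-1.42 ± 0.36, limma, adjusted p = 0.0261). It was not called without any of 5 of the 6 libraries, left out one at a time. The other 7 changes were also negative, from -0.94 (Tpm2) to -0.10 (Lmod1), with a median over the 8 of -0.69. For 6 genes the groups did not overlap, against 13.8% of all genes lower without overlap. With only the 6 libraries in the fit 4 were called, where 496 of 12614 genes were. The genotype change itself differed between marked and unmarked cultures in 3 of the 8 genes (Fhl1, Tagln and Lmod1), each nearer 0 in marked ones, where 10.7% of all genes differed. Member sums were 392 to 459 TPM in Terc-/- and 670 to 745 TPM in wild type. Stromal sums, which did not overlap either, were 512 to 606 TPM in Terc-/- and 714 to 962 TPM in wild type, and 1 of 18 tested stromal markers fell. Their part was not tested.

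The title marks were then compared within genotype, with the same unmarked libraries as above. In gaiwei-marked against unmarked 1-month wild type 7 of 8 genes fell, where 22.4% of all genes did. Acta2 read 201, 221 and 201 TPM in gaiwei-marked libraries, against 975, 1465 and 1402 TPM in unmarked ones (-2.03 ± 0.42, limma, adjusted p = 0.000321). Fhl1 read 1.84, 2.04 and 1.62 TPM, against 12.7, 30.6 and 27.9 TPM (-2.62 ± 0.33). The remaining calls were Lmod1 and Cnn1 (-1.33 each), Tagln (-1.34), Tpm2 (-1.25) and Myl9 (-1.10), and the count was 4 without gaiwei-marked replicate 3. For 7 genes the groups did not overlap, against 25.3% of all genes lower without overlap. Ankrd1 missed the threshold at -0.60 ± 0.36 (limma, adjusted p = 0.186), though with TPM as deposited it was called at -1.14. That scaling moved the median of all genes by -0.488.

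Stromal markers moved here too, 13 of 18 lower and 1 (Dcn) higher, with sums of 714 to 962 TPM in gaiwei-marked libraries, against 2685 to 9285 TPM in unmarked ones. Osteoclast marker sums were 902 to 1304 TPM, against 10575 to 12977 TPM. The part of either was not tested, and the marking and the sex pattern of the libraries cannot be told apart. In Terc-/- cultures none of the 8 genes was called between 519-marked and unmarked libraries, at 1 month (median 0.17) or at 6 months (median 0.15), where 33.6% and 28.2% of all genes were. At an unadjusted p under 0.05 in limma it was 1 of 8 at 1 month and 0 of 8 at 6 months, against 43.2% and 37.5% of all genes. Leaving out unmarked replicate 4 gave 1 call at either age. With TPM as deposited these medians were -0.16 and -0.12, while the medians of all genes were -0.391 and -0.259. The largest change with 519 marking was Ankrd1 at 1 month, 0.79 ± 0.36 (limma, adjusted p = 0.0972).

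The second question was the step to large cells in wild type. At 6 months all 8 genes were lower in large cells than at 2 days, with a median of -1.32. A test was made for the 5 genes that did not bring the list to notice, and 3 of them fell, where 25.1% of all genes fell. The list was noticed through these 2-day libraries, and the 5 genes correlated with the other 3 over the group means. The fall and its p-values are therefore not independent of that selection, and no conclusion is drawn from the count. Acta2 read 1189, 1737 and 1779 TPM in large cells, against 5185, 4749.8 and 4364 TPM at 2 days (-1.23 ± 0.42, limma, adjusted p = 0.0189). Tagln read 758, 1391 and 1241 TPM in large cells, against 3996, 4072 and 3659 TPM at 2 days (-1.44 ± 0.38, limma, adjusted p = 0.00329). Ankrd1 read 68.9, 102 and 104 TPM, against 261, 292 and 224 TPM (-1.11 ± 0.36, limma, adjusted p = 0.014). Of the 5 tested genes these 3 were clear of the 2-day libraries after scaling, against 25.2% of all genes lower without overlap.

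Myl9 read 281, 624 and 542 TPM in large cells, against 1265, 1140.3 and 1095 TPM at 2 days, and missed the threshold at -0.96 ± 0.41 (limma, adjusted p = 0.0591). Tpm2 read 388, 1868 and 568 TPM, against 1605, 1555 and 1456 TPM (-0.65 ± 0.48, limma, adjusted p = 0.259). Without large-cell replicate 2, the library with 1868 TPM, all 5 tested genes were called, and without large-cell replicate 1 it was 1. Leaving out 2-day replicate 1 or 2 gave 2. With only the 6 libraries in the fit, or one variance per group, none was called, where 1905 and 2405 of 12614 genes were. Of the genes without a test, Lmod1 read 4.94, 8.38 and 7.79 TPM in large cells, against 47.8, 39.1 and 36.3 TPM at 2 days (-2.02), and Fhl1 17.0, 23.5 and 15.1 TPM, against 146, 145 and 118 TPM (-2.44). Cnn1 differed by -1.41, at 59.0, 109 and 91.0 TPM in large cells, against 338, 288 and 265 TPM at 2 days.

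Genes around the 8 fell broadly in this step. Of 14 stretch-response genes 14 fell, with a median of -1.41, the kinase gene Lats2 (-1.90 ± 0.15) and the transcription factor gene Tead1 (-2.10 ± 0.34) among them. Of 24 focal adhesion genes 18 fell and 1 rose, the integrin gene Itgb1 reading 546 against 1488 TPM (-1.17 ± 0.17). Of 10 SRF-pathway genes 8 fell, Srf itself at 14.1 against 35.3 TPM (-0.90 ± 0.12). Of 25 other smooth-muscle genes 15 fell and 2 rose, with Mylk at -2.17 ± 0.14. Stromal markers fell in 6 of 18 and rose in none, with sums of 3282 to 4935 TPM in large cells, against 9515 to 10648 TPM at 2 days. Their part was not tested. With TPM as deposited the median of all genes was -0.36 and calls split into 1627 higher and 5323 lower, against 3109 and 3167 after scaling.

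**Figure D4:**
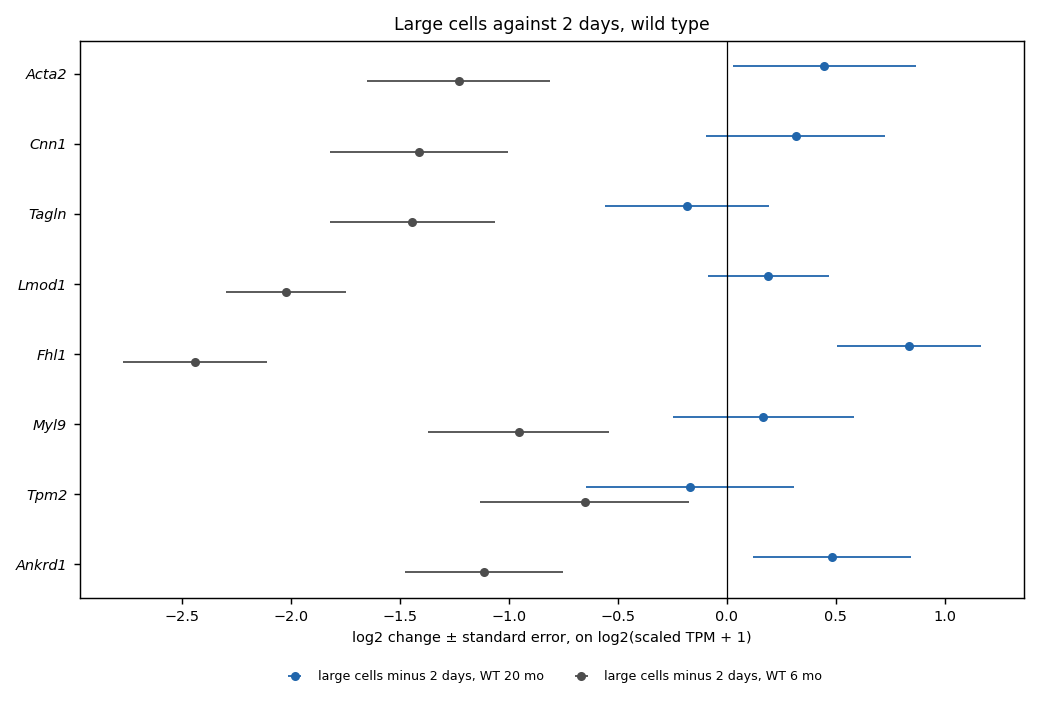
Log2 changes with standard errors (x axis) of large cells minus 2 days for the 8 genes in wild type at 20 and at 6 months, 3 libraries a group. The 6-month changes lie between -2.44 and -0.65, and the 20-month ones between -0.18 and 0.84.

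At 20 months none of the 5 tested genes was called in the same step, where 36.2% of all genes were, and the median over the 8 was 0.25. The 2-day libraries here too are among those through which the list was noticed. Acta2 read 2019, 1616 and 1995 TPM in large cells, against 1565, 1245 and 1707 TPM at 2 days (0.45 ± 0.42, limma, adjusted p = 0.442). Ankrd1 read 157, 161 and 151 TPM in large cells, against 121, 116 and 128 TPM (0.48 ± 0.36, limma, adjusted p = 0.32). After scaling, these 2 of the 5 tested genes were higher in every large-cell library than in any 2-day one, against 31.6% of all genes higher without overlap. None of the 5 had an unadjusted p under 0.05 in limma, against 44.2% of all genes. With only the 6 libraries in the fit 2 were called, where 6817 of 12614 genes were. Tagln (-0.18), Tpm2 (-0.17) and Myl9 (0.17) differed by less than their standard errors, and the untested Fhl1 read 46.4, 38.8 and 35.5 TPM in large cells, against 24.3, 20.0 and 27.9 TPM at 2 days. Of 18 stromal markers 13 rose and 1 fell, with sums of 11758 to 14296 TPM in large cells, against 4253 to 4971 TPM at 2 days. Their part, and the difference between the ages, was not tested.

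Age at 2 days is the comparison through which the list was noticed, and it is described only. All 8 genes were lower at 20 than at 6 months, with a median of -1.72 and a range of -2.47 (Fhl1) to -1.10 (Ankrd1). No member's groups overlapped (25.9% of all tested genes were lower without overlap), and since these values chose the list, nothing is read from that count. Myl9 read 381, 302 and 378 TPM at 20 months, against 1265, 1140.3 and 1095 TPM at 6 months. Tpm2 read 670.3, 553 and 651 TPM at 20 months, against 1605, 1555 and 1456 TPM at 6 months. Lmod1 read 7.59, 5.97 and 8.996 TPM at 20 months, against 47.8, 39.1 and 36.3 TPM at 6 months. The stromal sums were 4253 to 4971 TPM at 20 months, against 9515 to 10648 TPM at 6 months.

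In wild-type large cells few members were called by age. At 20 against 1 month 2 of 8 genes rose, where 9.2% of all genes rose. They were Ankrd1, at 157, 161 and 151 TPM at 20 months, against 55.2, 42.4 and 40.1 TPM at 1 month (1.63 ± 0.36, limma, adjusted p = 0.00192), and Lmod1, at 8.96, 7.83 and 7.14 TPM, against 2.21, 3.56 and 4.72 TPM (0.91 ± 0.28, limma, adjusted p = 0.0189). Lmod1 was not called without 1-month replicate 1 or 20-month replicate 1 or 3. Both also rose at 6 against 1 month (1.13 ± 0.36 and 1.00 ± 0.28), where 3.87% of all genes rose, but leaving out single libraries gave counts of 0 to 5, the 5 without 6-month replicate 1 and the 0 without 1-month replicate 3 or 6-month replicate 2. With only the libraries compared that count was 0, where 26 of 12614 genes were called in either direction. At 20 against 6 months none of the 8 was called, where 27.6% of all genes were. In limma 1 of 8 had an unadjusted p under 0.05, against 43.1% of all genes. Leaving out 6-month replicate 1 gave 2 calls and replicate 2 gave 1. The 1-month libraries are those with high Xist, so age and that pattern cannot be told apart in comparisons with them. All these comparisons share libraries with each other and with the genotype ones. The nearest was Fhl1, 0.81 ± 0.33 (limma, adjusted p = 0.0685).

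Stromal sums in these wild-type large cells were 2685 to 9285 TPM at 1 month, 3282 to 4935 TPM at 6 months and 11758 to 14296 TPM at 20 months. At 20 against 6 months 12 of 18 stromal markers rose and none fell, and their part was not tested. With TPM as deposited the median of all genes at 20 against 6 months was 0.274, and that of the 8 genes 0.09, against -0.18 after scaling.

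In Terc-/- large cells Ankrd1 was higher at 6 months in both the unmarked and the 519-marked libraries. In unmarked libraries it read 20.6, 52.5 and 82.8 TPM at 6 months, against 3.64, 4.50 and 9.82 TPM at 1 month, and was the 1 member of 8 that rose (2.81 ± 0.36, limma, adjusted p = 2.41e-05), where 2.93% of all genes rose. With only these 6 libraries in the fit its adjusted p was 0.0505. The other 7 changes were positive, from 0.22 (Fhl1) to 1.18 (Cnn1), and without 6-month replicate 1, the lowest of its group for all 8 genes, 6 were called. In 519-marked libraries Ankrd1 read 36.8, 31.2 and 30.4 TPM at 6 months, against 6.02, 8.03 and 8.26 TPM at 1 month (1.86 ± 0.36, limma, adjusted p = 0.000688). Lmod1 rose as well, at 1.73, 1.29 and 1.38 TPM, against 0.263, 0.442 and 0.497 TPM (0.82 ± 0.28, limma, adjusted p = 0.0334), where 12% of all genes rose. Lmod1 was not called when any 1 of the 6 libraries was left out.

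All 8 members were higher at 6 months without overlap in the 519-marked libraries, against 28.2% of all genes. All 8 were called with only those 6 libraries in the fit, where 5713 of 12614 genes were, against 3010 in the main fit. Acta2 read 327, 299 and 336 TPM at 6 months, against 129.6, 147 and 148 TPM at 1 month (0.99 ± 0.42, limma, adjusted p = 0.0869). Stromal sums were 1349 to 1606 TPM at 6 months, against 512 to 606 TPM at 1 month, and 10 of 18 stromal markers rose. In the unmarked pair they were 1024 to 3467 TPM, against 592 to 1378 TPM, with 7 of 18 rising. The part of these markers was not tested. The age change did not differ between 519-marked and unmarked Terc-/- in a way that passed the test for any of the 8 genes, where 4.67% of all genes passed. None of the 8 had an unadjusted p under 0.05 in limma, against 18.9% of all genes.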

How the data were processed

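The authors deposited 5 tables of normalized values for 45706 genes and 30 libraries. The columns sum to 1000000, so the deposited unit was taken as TPM. The file headers give sample titles and no unit. HTSeq and mm10 are named without a version, per the submitters' processing notes. No aligner is given in the sources used here. Because the authors gave TPM and no counts were used, read depth is unknown and no counting interval is given. Gene identifiers matched GENCODE M21 for 45143 genes. All 30 columns were matched to samples by title, and no libraries were identical.

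Libraries were put on one scale with an unweighted trimmed mean of log ratios (trimming 30% by ratio and 5% by level), and values were taken as log2(scaled TPM + 1) and filtered at a mean of 1 TPM (12614 genes, 20240 being listed at 0 everywhere). limma 3.58.1 in R 4.3.3 fitted 10 group means with trended, robust empirical Bayes moderation and Benjamini-Hochberg adjustment over all tested genes at 0.05. Figures and sums used Python 3.11.15, pandas 2.3.3, numpy 2.4.6 and matplotlib 3.10.9. The code was tested on simulated data.

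The members, the 13 other gene lists and the tests were chosen with earlier results of these data known. No p-value was adjusted over the list alone. Lmod1, Cnn1 and Fhl1 had no test in comparisons with a 2-day group. Other genes are named by rule: up to 5 of a list by smallest p, and the genes most correlated with a member over 10 group means. Marker genes given as ranges were chosen after their values were seen. Alternatives were each library left out, the groups compared alone, the replicate number as a block, all genes unfiltered, 0.1 as the pseudocount, and scaling by median ratios or none at all. One variance per group, and leaving out 6-month wild-type large-cell replicate 2 with only the groups compared, were added after seeing the data.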

Additional observations from a re-analysis of the deposited data

Results flagged for a closer look

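The change between marked and unmarked cultures differed between the genotypes at 1 month, by a test of the difference itself, for 3 of the 8 genes, where 10.7% of all tested genes differed. The difference, Terc-/- minus wild type, was 2.69 ± 0.47 for Fhl1 (limma, adjusted p = 0.000791), 1.71 ± 0.53 for Tagln (limma, adjusted p = 0.0392) and 1.35 ± 0.39 for Lmod1 (limma, adjusted p = 0.0265). In Terc-/- the marked and unmarked libraries overlapped for each of the 3, and in wild type every marked library was lower. Leaving out 1 library ended the call of Tagln in 11 of 12 cases and that of Lmod1 in 7 of 12, and of Fhl1 in none. The unmarked wild-type libraries in this difference are those with the female pattern of Xist. The marked Terc-/- libraries carry a different title mark from the marked wild-type ones, and the labels state the meaning of neither. Genotype and kind of mark therefore cannot be told apart in this difference. The same difference was given above as the genotype change between marked and unmarked cultures, so it is not a further result.

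The step from 2 days to large cells ran in opposite directions at 20 and 6 months in every library for 3 genes. The differences, 20 minus 6 months, were 3.28 for Fhl1, 1.68 for Acta2 and 1.60 for Ankrd1. These differences were not tested, since each holds the age change at 2 days through which the list was noticed. Fhl1 is also one of the genes that brought the list to notice. No share over all genes was computed for the count of 3, and nothing is read from it.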

How the results depend on the processing

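Of 2112 alternative values of 144 member results, 1940 were unchanged, 102 lost a call, 66 gained one and 4 moved. Unchanged means the same side of the threshold for results with a test. For results without one it means a log2 change within a margin set by its standard error, and moved means outside that margin. No call reversed, but some uncalled signs flipped. The counts below are of members called, and unless stated the cause of a change was not tested. Lower Terc-/- at 1 month held at 8 in every alternative, none of which separates genotype from the Xist pattern. At 6 months the 8 became 2 with one variance per group, 0 with only the groups compared and 1 with these but no wild-type replicate 2. For large cells against 2 days at 6 months the 3 of 5 became 5 with TPM as deposited, 0 with one variance per group, 0 with only the groups compared, and 5 with these but no large-cell replicate 2. At 20 months the 0 became 2 with only the groups compared. For 6 against 1 month in wild-type large cells the 2 became 1 with TPM as deposited, 0 with a pseudocount of 0.1, 1 without a filter, 0 with one variance per group, 0 with only the groups compared and 0 with these but no 6-month replicate 2. For 20 against 6 months the 0 became 1 with TPM as deposited and 1 with only the groups compared but no 6-month replicate 2. For 6 against 1 month in unmarked Terc-/- the 1 became 2 with TPM as deposited, 2 with a pseudocount of 0.1, 2 with one variance per group and 0 with only the groups compared. In 519-marked Terc-/- the 2 became 5 with TPM as deposited, 1 without a filter, 8 with one variance per group and 8 with only the groups compared. For 519-marked against unmarked Terc-/- at 1 month the 0 became 1 with one variance per group and 1 with only the groups compared. For 519-marked Terc-/- against gaiwei-marked wild type the 1 became 0 without a filter, 2 with one variance per group and 4 with only the groups compared. Single libraries left out gave 8 to 8 for genotype at 1 month, 7 to 8 at 6 months and 0 to 1 in marked cultures, 1 to 5 for large cells at 6 months and 0 to 0 at 20 months, 0 to 5, 1 to 2 and 0 to 2 for wild-type ages (6 against 1, 20 against 1, 20 against 6), 1 to 6 for unmarked and 1 to 1 for 519-marked Terc-/- ages, 4 to 7 for gaiwei marking, and 0 to 1 for 519 marking at 1 and at 6 months. The untested medians ranged from -1.81 to -1.59 for age at 2 days and from 1.28 to 1.94 for the difference in the large-cell step.

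Whether the replicate numbers pair libraries is not stated, and so few shared numbers cannot settle it. Of 5 comparisons with at least 3 shared numbers, 0 had every correlation of deviations above 0.1 (-0.332 to 0.292). With 2 shared numbers, both correlations were above 0.1 for age in unmarked Terc-/- (0.33 and 0.169) and for gaiwei marking (0.246 and 0.229). Over all comparisons they ran from -0.596 to 0.33. With a replicate block the count was 1 in place of 2 for 6 against 1 month in wild-type large cells and 1 in place of 0 for 20 against 6 months, and other counts of members called stayed within 1.5 times. Single calls gained under the block were Myl9 for large cells at 6 months, Fhl1 for 20 against 6 months, Tagln for age in 519-marked Terc-/-, Ankrd1 for genotype by age and Acta2 for genotype by marking, and Ankrd1 was lost for 6 against 1 month in wild type.

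Counts over all genes moved more. Under one variance per group, and under only the groups compared, they were 444 and 96 for genotype at 6 months (3636 as reported, and 1032 with only the groups but no wild-type replicate 2), 2405 and 1905 for large cells at 6 months (6276), 36 and 26 for 6 against 1 month in wild type (1208, and 44), 239 and 164 for 20 against 6 months (3483, and 897), and 6436 and 5713 for age in 519-marked Terc-/- (3010). One variance per group gave 7173 for large cells at 20 months (4565) and 987 in marked cultures (435, and 282 with TPM as deposited). With only the groups compared, 20 against 1 month gave 1848 (2796) and age in unmarked Terc-/- 153 (502). TPM as deposited moved the median of all genes by more than 0.1 also for large cells at 20 months (-0.106), 6 against 1 month in wild type (-0.159), genotype at 6 months (0.129) and age in 519-marked Terc-/- (0.141). The higher share of calls was then 39.8% in place of 51.7% for large cells at 20 months, 53.7% in place of 41.5% for 20 against 1 month, 71.2% in place of 46.2% for 20 against 6 months, 65.6% in place of 50.4% for age in 519-marked Terc-/-, 16.4% in place of 51.9% for gaiwei marking, and 15.4% and 20.5% in place of 55% and 51% for 519 marking at 1 and 6 months. Read depth is unknown, so how far counting error limits low genes such as Lmod1 cannot be given.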
